A study of Mus musculus with 2 samples.

Results

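The granulocyte-rich spots were 200 of the 3398 tissue-covered positions of 2 femur sections, 100 in each section, that lay outside the bone region and held the largest share of transcripts from 9 granulocyte genes. They were chosen by their own counts. Spots with at least 500 unique molecular identifiers (UMIs, each a captured molecule counted once) were taken if they were not among the barcodes that the study lists for its bone region and fell outside the convex hull of those barcodes. The study drew that region around the bone of the fracture site between the inner pins of the fixator. Any bone beyond these pins therefore counts as outside the bone region here. The 1550 eligible outer spots of the Control section and the 1070 of the Loaded section were then ranked by the summed UMIs of *Camp*, *S100a8*, *S100a9*, *Ngp*, *Ltf*, *Mpo*, *Elane*, *Cd177* and *Ncf1* over all UMIs of the spot, and the 100 highest of each section were kept. The levels of these 9 genes and of any gene that accompanies them are therefore a description of the selected spots and not a finding about them.

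Both sections came from female bone cell reporter (BCR) mice, which carry fluorescent reporters driven by the *Ibsp* and *Acp5* genes, with a femoral osteotomy at 12 weeks of age held by an external fixator and euthanasia at 17 weeks. The Control femur received sham loading and the Loaded femur cyclic mechanical loading of the defect. There was 1 section of 1 mouse per group, so that no difference between Control and Loaded can be told apart from a difference between mice, sections or planes of cutting, and no test was run. Pairs of probes on 5 μm sections of fixed, decalcified and paraffin-embedded femur were captured on spots 55 μm wide and 100 μm apart, and a spot is a small area of tissue that can hold several cells.

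Neutrophils, the most numerous granulocytes, are made in the marrow from myeloblasts. At the promyelocyte stage the cells fill primary (azurophilic) granules with myeloperoxidase and serine proteases, at the myelocyte and metamyelocyte stages they stop dividing and fill secondary granules with lactoferrin and the antimicrobial peptide precursors, and in the last stages they carry large amounts of the calcium-binding proteins S100A8 and S100A9 and acquire the receptors with which they leave for the blood. Transcripts of granule proteins are made largely while their granule is formed, so that the ratio of these transcripts follows the mixture of stages. Granulocyte formation in adult long bones takes place in red marrow, beside erythroblasts, B lineage cells, plasma cells and megakaryocytes.

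Among the 9 genes, 3 had the same short element near their start, and their sequences are printed here to show it. The 3 genes do not follow a common pattern in the results below, and *Camp*, *S100a8* and *Cd177* were without it. Factors of the C/EBP family, which direct granulocyte differentiation, bind elements of the type TTGCNNAA. This word was searched on both strands, the other strand reading TTNNGCAA, in the 190 bases from 250 to 61 bases before the RefSeq start (GRCm38.p6). It was found in 3 of the 9 stretches (33.3%) and in 7.77% of 32851 stretches of the same length. The sequences run in the direction of transcription and capitals mark the match, which begins 236, 138 and 75 bases before the start.
S100a9, chr3:90695782-90695971, minus strand: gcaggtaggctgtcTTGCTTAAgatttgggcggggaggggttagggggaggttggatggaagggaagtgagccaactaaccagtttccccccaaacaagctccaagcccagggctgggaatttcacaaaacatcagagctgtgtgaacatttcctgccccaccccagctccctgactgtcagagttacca
Ngp, chr9:110419558-110419747, plus strand: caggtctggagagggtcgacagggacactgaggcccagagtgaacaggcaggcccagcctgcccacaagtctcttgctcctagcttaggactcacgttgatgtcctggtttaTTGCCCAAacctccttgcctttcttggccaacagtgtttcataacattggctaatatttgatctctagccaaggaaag
Ltf, chr9:111019042-111019231, plus strand: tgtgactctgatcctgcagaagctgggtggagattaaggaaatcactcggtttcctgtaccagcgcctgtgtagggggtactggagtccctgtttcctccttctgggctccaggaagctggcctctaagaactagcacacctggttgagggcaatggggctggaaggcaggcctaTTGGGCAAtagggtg
On the same build the genes lie in clusters in part. *S100a8* (chr3:90668978-90670035) and *S100a9* (chr3:90692632-90695721) are neighbors on chromosome 3, *Camp* (chr9:109847379-109849617), *Ngp* (chr9:110419747-110423012) and *Ltf* (chr9:111019271-111042767) lie within chromosome 9, and *Elane* (chr10:79886247-79888215) lies beside *Prtn3* (chr10:79874476-79883174), by GENCODE M21. A match is a description of these letters and shows no binding.

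The selected spots were shallower than the other outer spots as a whole, but not than the outer spots up to 100 μm away, which held 1529 (Control) and 1767 UMIs (Loaded) on average against 1563 and 1970 in the selected spots. The Control spots held 156331 UMIs in all, with a median of 1488 per spot (543 to 7766) and a median of 944 genes. For Loaded the total was 197013 UMIs, the median 1933 (526 to 4058) and the median gene number 1184. The other outer spots had medians of 2886.5 (Control) and 2971 UMIs (Loaded). In such data a smaller number of cells and less RNA per cell cannot be told apart.

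The share of the 9 genes in single spots was low in both sections but had a long upper tail in the Loaded section. In the Control section it ranged from 0.736% to 2.40% of UMIs with a median of 0.901%, and the nearest spots left out had 0.732%, 0.731% and 0.727%. In the Loaded section it ranged from 0.850% to 10.4% with a median of 1.20%, and the nearest spots left out had 0.850%, 0.848% and 0.847%. No gap separated the selected from the excluded spots in either section, so the limit at 100 spots cuts a continuous range. At least 2% was reached by 2 Control and 19 Loaded spots, and at least 3% by 0 Control and 9 Loaded spots. If the lowest Control share was used as the limit in both sections, 145 Loaded spots would be selected. The other outer spots had medians of 0.0282% (Control) and 0.0629% (Loaded).

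**Figure D1:**
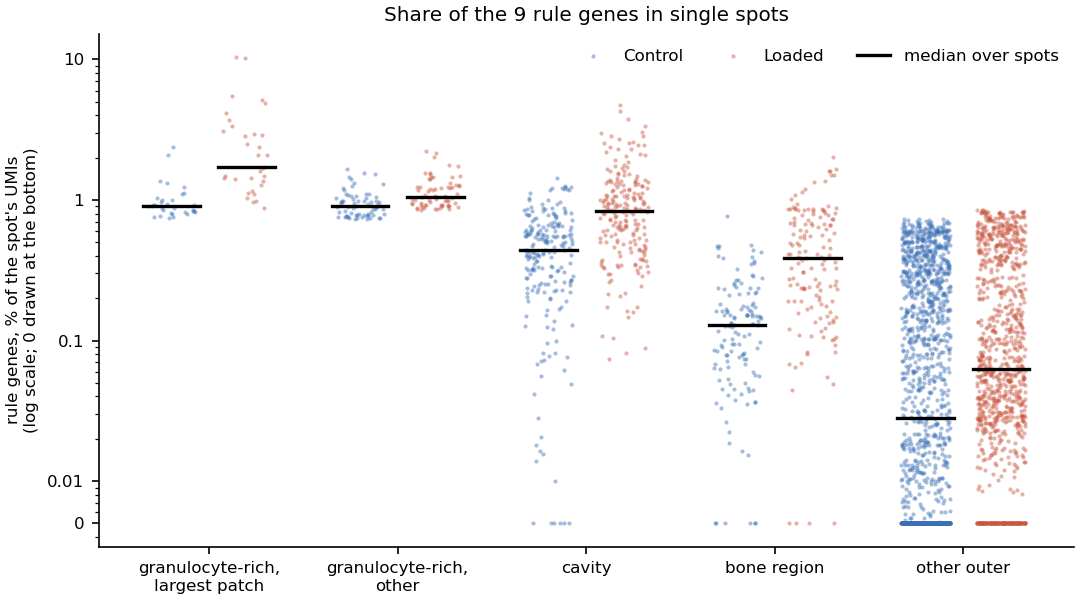
Share of the 9 rule genes among all UMIs of each spot (vertical axis in %, log scale, spots at 0 drawn at the bottom) for the groups of spots on the horizontal axis, with Control in blue, Loaded in red and the median over spots as a black line. The Loaded spots of the largest patch reach 10.4%, the Control spots end at 2.40%, and the outer spots end where the rule cut them.

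The 6 granulocyte markers *Camp*, *S100a8*, *Ngp*, *Ltf*, *Mpo* and *Elane* are all genes of the rule, so their frequency in the selected spots describes the selection and does not check the label. It is given after thinning each spot to 500 UMIs. A *Camp* UMI was then present in 87 of 100 Control and 91 of 100 Loaded spots, against 11.1% and 12.9% of outer spots rich in skeletal muscle, a tissue that should lack it. *Elane* was present in 30 and 20 spots against 2.24% and 2.49%. *Mpo* was close to the limit of these data, in 4 of 100 Control spots (exact interval 1.10 to 9.93%) and 7 of 100 Loaded spots (2.86 to 13.9%), against 1.02% and 0.933% in muscle. Without thinning, *Camp* was found in 99 Control and 100 Loaded spots. *Prtn3*, a granulocyte gene that the rule did not use, had a UMI in 20 Control and 20 Loaded spots after thinning, against 1.42% and 1.09% in muscle, and *Lcn2* in 6 and 19 spots against 1.12% and 0.467%. Other such genes were rarer. *Ctsg* was present in 3 and 5 spots against 0.203% and 1.09%, and *Retnlg* in 3 and 11 against 0.305% and 0.622%. *Chil3* was present in 0 spots of either section. The spots were not pure. Erythroid genes took 9.97% of their UMIs in the Control and 8.08% in the Loaded section, several times the share of the 9 granulocyte genes (0.988% and 1.82%), and the spots are called granulocyte-rich in this sense only. No image of the sections was used, so whether the outer or the enclosed spots lay in marrow was not checked on histology.

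The spots were not scattered over the section. Of the 100 Control spots 76 and of the 100 Loaded spots 80 had another selected spot as a direct neighbor on the grid, and they formed 38 connected patches in each section. The largest patch held 32 spots in the Control and 33 spots in the Loaded section, while the next largest held 9 and 6. The positions relative to the bone region differed between the sections. Bone beyond the inner pins was not part of that region, so a distance to it is not a distance to all bone. In the Control section the median distance to the nearest bone region spot was 1473 μm and 7 spots lay within 500 μm, whereas in the Loaded section the median was 693 μm and 43 spots lay within 500 μm. The other outer spots had medians of 1473 μm and 854 μm, and how far the distances follow the extent of tissue on each section was not tested. The largest Control patch had a median distance of 1463 μm, and the largest Loaded patch of 265 μm.

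**Figure D2:**
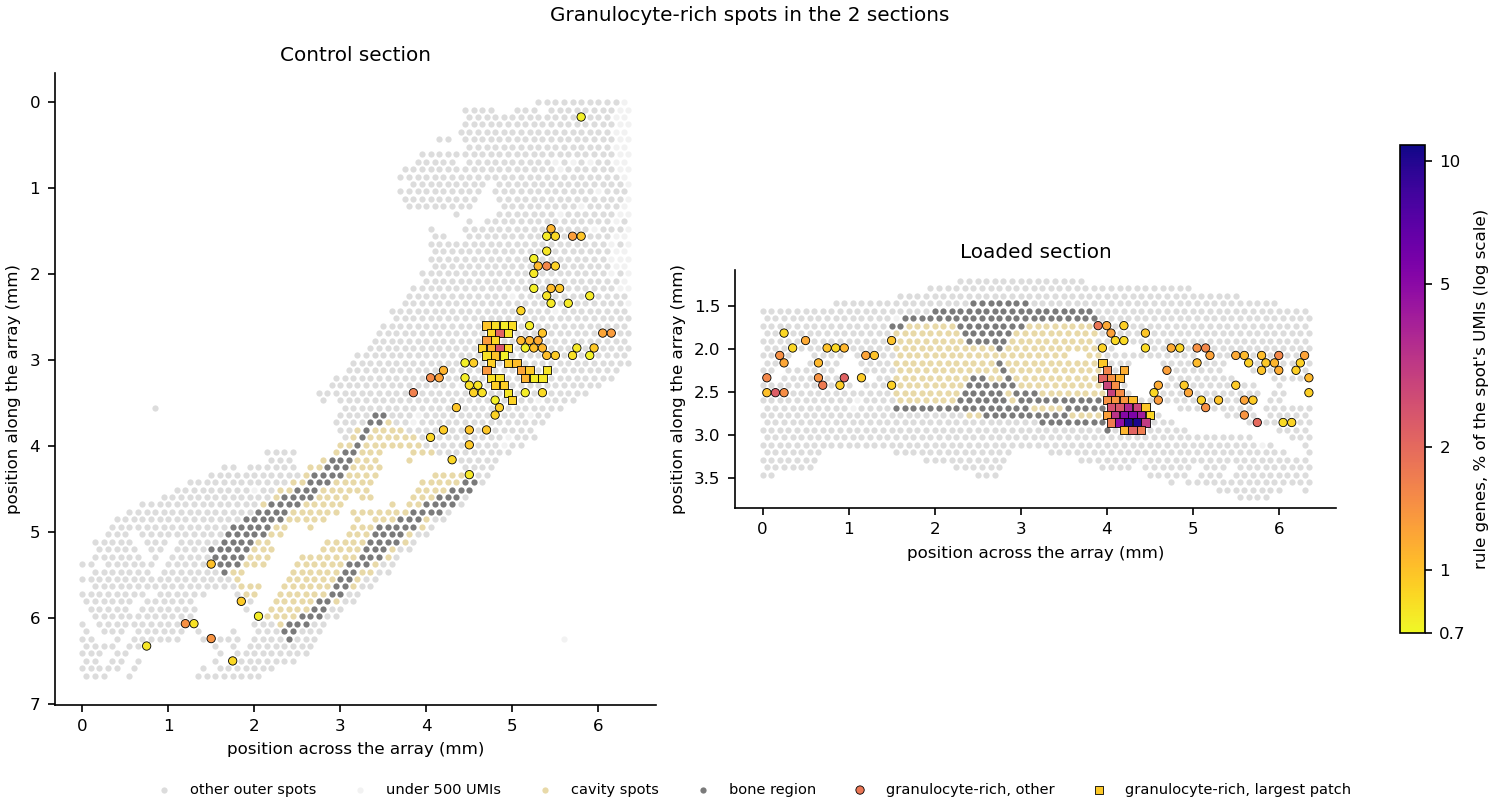
Position of every spot under tissue on the capture array (both axes in mm), with the bone region in dark gray, the enclosed cavity in sand, other outer spots in light gray and the granulocyte-rich spots colored by the share of the 9 rule genes in % of UMIs (log scale); squares mark the largest connected patch. In the Loaded section the patch of 33 spots lies at a median of 265 μm from the bone region and holds the 2 spots above 10%, and in the Control section the patch of 32 spots lies at 1463 μm.

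Around the spots, the share of the 9 genes was lower at larger distance and that of skeletal muscle higher. The outer spots up to 100 μm from a selected spot had 0.392% (Control) and 0.534% (Loaded) of UMIs from the 9 genes, and those between 400 and 500 μm 0.0240% and 0.0313%. Over the same rings the skeletal muscle genes went from 9.99% to 31.9% in the Control and from 9.10% to 22.8% in the Loaded section. The share of the 9 genes at each step lay below that of the previous one in both sections. Since the rings surround the spots ranked highest by these genes, the first step down from the selected spots follows from the selection.

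Members of the rule were followed by role, as UMIs summed over the 100 spots relative to the sum of their size factors, which gives a normalized count for a spot of average size factor. To show how far a value varied within a section, the spots of each section were split by position into 4 blocks of 25 spots. Intervals are exact 95% intervals that cover counting error only, since blocks and spots of 1 section are not replicates.

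The primary granule genes *Elane*, *Mpo*, *Prtn3* and *Ctsg* were low and alike in both sections. *Elane*, neutrophil elastase, had 95 UMIs in the Control spots and 97 in the Loaded spots, a normalized count of 2.13 (1.72 to 2.60) and 1.68 (1.36 to 2.05). Its 4 blocks read 3.32, 1.92, 1.78 and 1.49 in the Control and 1.17, 1.96, 1.67 and 1.87 in the Loaded section, and the blocks overlapped. *Mpo*, myeloperoxidase, had 23 and 21 UMIs, or 0.516 (0.327 to 0.774) and 0.364 (0.225 to 0.556). *Prtn3*, proteinase 3, which the rule did not use, had 65 and 78 UMIs, or 1.46 (1.13 to 1.86) and 1.35 (1.07 to 1.69). For *Ctsg*, cathepsin G, the counts were 19 and 26 UMIs, or 0.426 and 0.451. The intervals of each of these 4 genes overlapped between the sections. Other genes of the list went in opposite directions, *Fcnb* with 12 and 26 UMIs (0.269 and 0.451) and *Nkg7* with 13 and 4 UMIs (0.292 and 0.0693).

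Among the secondary granule genes, some were higher in the Loaded spots and some were not. *Camp*, which encodes the cathelicidin precursor, was the most abundant of the 9 with 613 UMIs in the Control and 1407 in the Loaded spots. Its normalized count was 13.7 (12.7 to 14.9) with blocks of 13.6, 14.0, 12.3 and 15.2 in the Control, and 24.4 (23.1 to 25.7) with blocks of 16.9, 25.2, 14.8 and 40.7 in the Loaded section. The Control blocks thus differed little and the Loaded blocks by more than 2-fold, and the lowest Loaded block lay inside the Control range. *Ngp*, neutrophilic granule protein, went from 68 to 302 UMIs, with Control blocks of 1.29, 1.38, 2.25 and 1.19 and Loaded blocks of 1.68, 5.50, 1.95 and 11.8. *Ltf*, lactoferrin, had 196 and 224 UMIs and a normalized count of 4.40 (3.80 to 5.06) in the Control and 3.88 (3.39 to 4.42) in the Loaded section. *Cd177*, a neutrophil surface protein, had 52 and 172 UMIs, or 1.17 (0.871 to 1.53) and 2.98 (2.55 to 3.46). Its Loaded blocks of 2.93, 2.59, 3.07 and 3.38 all lay above the Control blocks of 1.57, 1.08, 0.750 and 1.29, and unlike those of *Camp* and *Ngp* they were close to each other. Such a separation, with all 4 Loaded blocks above all 4 Control blocks, was found for 4.48% of the 1162 genes with at least 50 UMIs over both sections.

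The late genes also varied among the Loaded blocks. *S100a8* had 116 UMIs in the Control and 520 in the Loaded spots, and the normalized counts of the blocks were 3.13, 2.15, 2.72 and 2.48 against 3.81, 11.4, 4.26 and 16.3. *S100a9*, the partner of *S100a8* in calprotectin, had 94 and 344 UMIs, with blocks of 1.66, 3.38, 1.88 and 1.19 against 2.20, 6.51, 1.95 and 13.2. A single Control spot held 20 of the 94 *S100a9* UMIs. For *S100a8* the groups of blocks did not overlap, and for *S100a9* they did. *Ncf1*, the p47 organizer subunit of the phagocyte NADPH oxidase, had 288 and 504 UMIs and normalized counts of 6.46 (5.74 to 7.25) and 8.73 (7.99 to 9.53), and its blocks, between 5.16 and 7.38 in the Control and between 7.88 and 9.16 in the Loaded section, did not overlap.

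**Figure D3:**
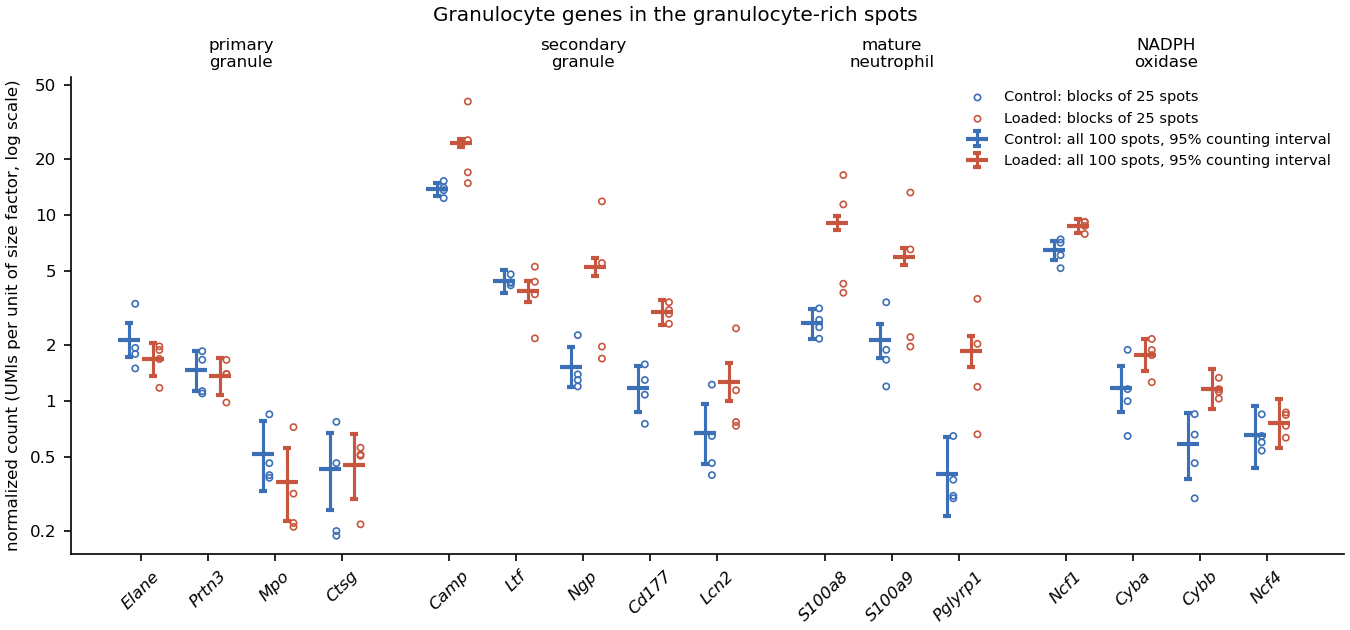
Normalized count (UMIs per unit of size factor, log scale) of granulocyte genes in the granulocyte-rich spots, grouped by stage or role; bars mark the value over all 100 spots with its exact 95% counting interval, open circles the 4 blocks of 25 spots, Control in blue and Loaded in red. The Loaded blocks of *Ngp*, *S100a8* and *S100a9* spread from near the Control level to 11.8, 16.3 and 13.2.

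The high Loaded blocks traced to the largest patch. In its 33 spots *Camp* had a normalized count of 38.4 against 16.4 in the other 67 Loaded spots, *S100a8* 17.6 against 4.09, *S100a9* 13.2 against 1.80, *Ngp* 10.8 against 2.04, and *Pglyrp1*, a peptidoglycan recognition protein of the late granules, 3.61 against 0.845. The primary granule genes did not move together. *Elane* had 1.76 against 1.64, *Prtn3* 1.14 against 1.47, *Mpo* 0.333 against 0.382 and *Ctsg* 0.571 against 0.382. *Fcnb*, with 17 and 9 UMIs, was higher in the patch (0.809 against 0.245). Their summed list had a log2 ratio of 0.15 (-0.22 to 0.52). *Cd177*, at 2.62 against 3.19, was not higher in the patch. The 2 highest spots were direct neighbors inside the patch. The first, with 4022 UMIs, held 171 UMIs of *Camp*, 73 of *S100a8*, 66 of *S100a9*, 61 of *Ngp* and 0 of *Mpo*, and the 2 together held 106 of the 278 *S100a9* UMIs of the patch. Without these 2 spots the patch still had a normalized count of 12.9 for *S100a8* and 9.16 for *S100a9*.

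The largest Control patch showed no such contrast in *Camp*, *S100a8*, *S100a9* and *Ngp*. Its 32 spots had 14.7 of *Camp* against 13.3 in the other 68 Control spots, 3.02 against 2.42 of *S100a8*, 1.10 against 2.55 of *S100a9* and 1.40 against 1.58 of *Ngp*. *Pglyrp1* had 0.662 against 0.290, from 9 and 9 UMIs, with a log2 ratio of 1.19 (-0.32 to 2.70). The single spot with 20 *S100a9* UMIs lay outside the patch.

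The UMIs of *S100a8* and *S100a9* were then set against those of the primary granule proteins *Mpo*, *Elane*, *Prtn3* and *Ctsg* within each group of spots. No scaling factor enters this ratio. *S100a8*, *S100a9*, *Mpo* and *Elane* are genes of the rule, so its values in the selected spots and their patches describe the selection. Whether the ratio follows the mixture of stages was not tested. It was 1.04 (0.853 to 1.27) in the Control and 3.89 (3.35 to 4.53) in the Loaded spots. In the largest Loaded patch it reached 8.10 (6.41 to 10.4), and in the other Loaded spots 1.52 (1.23 to 1.89). The latter value lay above the 1.04 of the Control spots, and the intervals overlapped only between 1.23 and 1.27. Such an overlap does not show that the values are alike. In the cavity spots, those enclosed by the bone region, the ratio was 1.30 (1.09 to 1.56) in the Control and 2.97 (2.67 to 3.30) in the Loaded section, and in the bone region 1.48 (1.10 to 1.98) and 3.40 (2.78 to 4.18). The ratio was higher in the Loaded section in the cavity and the bone region as well, where no spot had been selected by these genes.

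Against the other outer spots of the same section, the rule fixes that the 9 genes are higher, and they were, with log2 ratios from 2.78 to 5.19. The other genes of the lists accompany them. A gene was counted if it had at least 50 UMIs over both groups of spots and its normalized counts differed at least 2-fold. In the Control section 1837 of 9656 genes (19%) were that much higher in the granulocyte-rich spots and 2531 (26.2%) that much lower, and in the Loaded section 1227 of 8662 (14.2%) and 1810 (20.9%). The median log2 ratio of all genes was -0.14 and -0.16. This balance depends on the scaling: the higher genes were 42.1% of the Control genes past 2-fold with the scran factors, 65.0% with library totals, which put the median of all genes at 0.33, and 14.6% with TMM factors, which put it at -0.86. For Loaded they were 40.4% with scran and 16.8% with TMM factors.

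Granulocyte genes outside the rule were higher together, beside 19% (Control) and 14.2% (Loaded) of all genes that were at least 2-fold higher. Of the 21 such genes analysed, 11 passed the count limit in the Control section, of which 9 were at least 2-fold higher and 0 lower, with a median log2 ratio of 3.25, and 12 passed in the Loaded section, of which 10 were higher and 0 lower, with a median of 2.94. Among genes whose 4 blocks did not overlap those of the other outer spots, several of them genes of the rule, the highest ratios in the Control section were those of *S100a9* (+4.30), *Ngp* (+4.23), *Camp* (+4.14), the immunoglobulin heavy chain joining segment *Ighj4* (+4.14), *Elane* (+4.09), *Lcn2* (+4.03), *Ltf* (+3.97) and *Prtn3* (+3.95). In the Loaded section they were those of *S100a9* (+5.19), *Ngp* (+4.97), *Pglyrp1* (+4.65), *Lcn2* (+4.60), *S100a8* (+4.55), the ficolin gene *Fcnb* (+4.14), *Camp* (+4.13) and *Ltf* (+3.63). *Lcn2* is lipocalin-2, a secondary granule protein that binds siderophores. Among these 8 genes of each section, *Ighj4* was the one that belongs to no granulocyte list. Its 25 UMIs in the selected Control spots came from 7 spots, with blocks between 0.0938 and 1.54.

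By stage, the genes of the rule were left out of the counts, since the selection fixed that they are higher. Over all genes tested, 19% (Control) and 14.2% (Loaded) were at least 2-fold higher. All 3 other primary granule genes that passed the limit were higher in both sections, *Prtn3* (+3.95 and +3.38), *Ctsg* (+3.83 and +2.98) and *Fcnb* (+3.36 and +4.14). Of the 2 other secondary granule genes, *Lcn2* was higher and the haptoglobin gene *Hp* stood at +0.40 and -0.16. The 3 other NADPH oxidase subunits were higher in both sections, with medians of 2.57 and 2.42. Of the other mature neutrophil genes 5 of 7 in the Control section were higher and 1 lower, and 7 of 9 in the Loaded section were higher and 0 lower, with medians of 2.52 and 2.80. Receptors for adhesion and chemoattractants were higher in 6 of 6 and 8 of 8 cases, among them the integrin chain *Itgb2* (+2.49 and +2.48) and the chemokine receptor *Cxcr2* (+2.52 and +2.28). Of the transcription factors of the lineage 3 of 7 were higher and 2 lower in the Control and 2 of 6 higher and 1 lower in the Loaded section, with shares of lower genes near the 26.2% and 20.9% of all genes. *Myb*, a factor of dividing progenitors (+3.16 and +2.62), and *Spi1*, the myeloid factor PU.1 (+2.15 and +2.23), were higher, while *Cebpb*, which other tissues also use, stood at -1.56 and -0.88. Transcripts of chemokines and growth factors that mobilize neutrophils were nearly missing everywhere, with 1 UMI of 7 genes in the Control and 4 in the Loaded spots beside 31 and 23 UMIs in the other outer spots.

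Other marrow lineages were higher in the same spots. All 9 proliferation genes that passed in the Control and all 8 in the Loaded section were at least 2-fold higher, among them *Mki67* (+2.99 and +2.52), *Cdk1* (+3.25 and +2.81) and *Ccna2* (+3.22 and +2.31). Over all genes 19% and 14.2% were that much higher. Of the erythroid genes 12 of 13 and 9 of 11 were higher, and the beta globin gene *Hbb-bs* alone gave 6462 and 7877 UMIs. Genes of the B lineage were higher in 5 of 6 and 4 of 5 cases, for example *Cd79a* (+2.89 and +2.34), part of the B cell receptor. Plasma cell genes were higher in 3 of 5 and 4 of 5 cases, led by *Igha* (+4.43 and +3.50), the constant chain of immunoglobulin A. *Jchain*, of the same list, was rare. Without thinning it had a UMI in 1 Control and 8 Loaded spots of 100 each, against 0.814% and 1.09% of muscle-rich outer spots. Which of the cells in a spot carried each transcript cannot be told from these counts.

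Of 9 monocyte and macrophage genes that passed, 3 were higher and 1 lower in the Control section, beside 19% and 26.2% of all genes, and 1 higher and 0 lower in the Loaded section, beside 14.2% and 20.9%, so that the share of higher genes in the Loaded section was near that over all genes. The complement gene *C1qa*, the most abundant of them, had log2 ratios of -0.63 and -0.97. The macrophage marker *Adgre1* had 0 UMIs in the selected spots of either section, a sum that ratios replace by 3 UMIs. The summed list stood at +0.17 in the Control section and turned to -0.55 with TMM factors, and it stood at -0.41 in the Loaded section. Skeletal muscle genes were at least 2-fold lower in 22 of 22 (Control) and 21 of 22 cases (Loaded), with medians of -2.55 and -1.44. The lowest ratios included genes of muscle or of energy metabolism, such as *Pdk4* (-4.98), *Cisd1* (-4.54), *Hhatl* (-4.18) and *Capn3* (-3.89) in the Control and *Nol3* (-4.25), *Art3* (-3.58) and *Cacng6* (-3.55) in the Loaded section, each resting on 1 or 2 UMIs in the selected spots. Genes of tendon and fibrous tissue were lower in 4 of 7 and 6 of 7 cases.

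**Figure D4:**
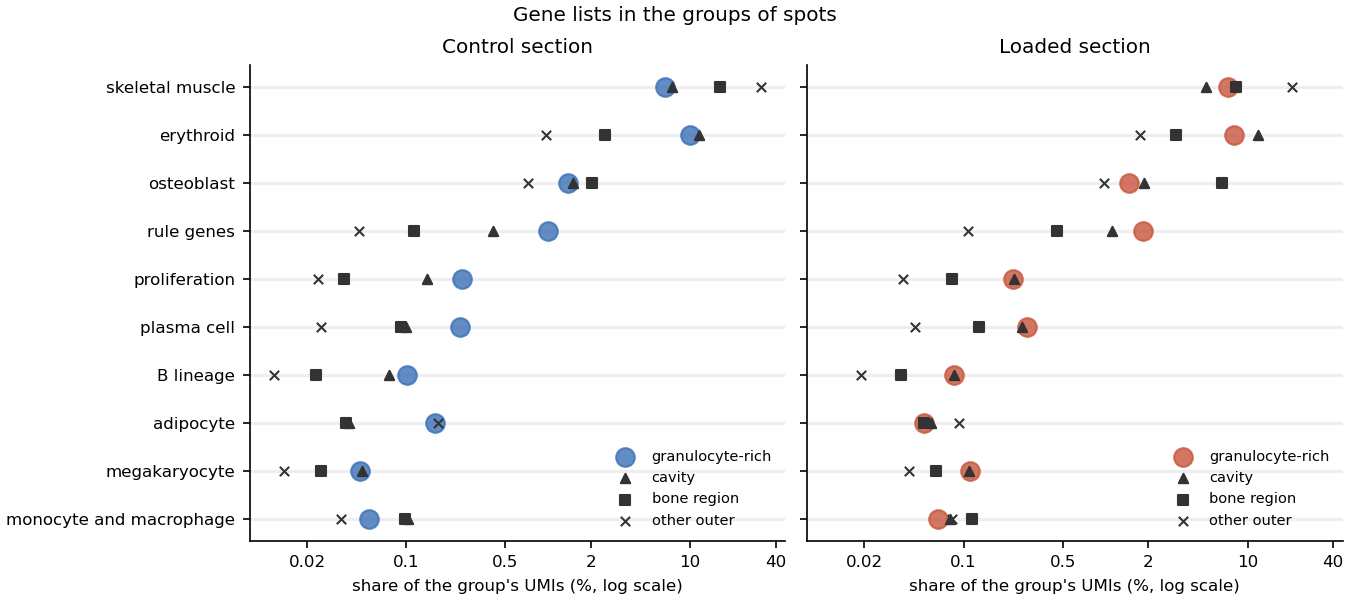
Share of each group's UMIs taken by 10 gene lists (horizontal axis in %, log scale) in the granulocyte-rich spots (large circles, blue for Control and red for Loaded), the cavity spots, the bone region and the other outer spots. For the erythroid, B lineage and megakaryocyte lists granulocyte-rich spots stand nearer to the cavity spots than to the other outer spots, where skeletal muscle takes 31.4% (Control) and 20.6% (Loaded). The Loaded erythroid sum lay below that of the cavity, at a log2 ratio of -0.59.

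The nearest comparison was the cavity enclosed by the bone region, 217 spots in the Control and 215 in the Loaded section. In the Control section 99 of 2370 genes (4.18%) were at least 2-fold higher and 290 (12.2%) lower, and in the Loaded section 33 of 2878 (1.15%) were higher and 70 (2.43%) lower. Primary granule genes summed to a log2 ratio of 1.50 (1.24 to 1.76) over the Control cavity but 0.33 (0.11 to 0.54) over the Loaded cavity. For secondary granule genes the values were 1.29 (1.17 to 1.42) and 0.72 (0.64 to 0.79), and for mature neutrophil genes 0.78 (0.59 to 0.97) and 0.59 (0.49 to 0.69). Proliferation genes stood at 0.81 (0.63 to 0.99) over the Control cavity and at -0.08 (-0.24 to 0.08) over the Loaded cavity, and plasma cell genes at 1.26 (1.06 to 1.45) and 0.08 (-0.07 to 0.22). Tendon and fibrous genes were lower than in the cavity in both sections, by 2.33 and 0.92 on the log2 scale, and adipocyte genes were higher than in the Control cavity (2.03) and not in the Loaded one (-0.21, -0.54 to 0.12). The granule and mature neutrophil lists hold genes of the rule. Of the 25 lists without genes of the rule, several of which rest on few UMIs, 19 had a sum closer to the cavity in the Loaded section and 6 a sum farther from it. The latter were erythroid (-0.21 in the Control and -0.59 in the Loaded section), osteoblast (-0.12 and -0.38), skeletal muscle (-0.17 and 0.47), osteoclast (-0.15 and 0.63), and endothelium and chondrocyte genes, whose intervals overlapped between the sections. The cavity spots themselves had median shares of the 9 genes of 0.443% (Control) and 0.839% (Loaded), and whether the cavity or the outer spots differed between the mice was not tested.

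The osteoblast genes were set against those of the bone region. They took 1.37% and 1.47% of UMIs in the selected spots, against 2.02% and 6.58% in the bone region. In 1 block of the selected Control spots they took 2.93%, and the distance of that block to the bone region is not given here. Within the Loaded section they were higher in the largest patch than in the other selected spots (2.52% and 0.895%), a log2 ratio of 1.41 (1.30 to 1.52), and in the Control section lower (0.813% and 1.62%). Erythroid genes showed the opposite order, with 5.09% in the Loaded patch and 9.70% in the other Loaded spots, and 12.6% and 8.78% in the Control section. Megakaryocyte genes also were lower in the Loaded patch, by 1.54 on the log2 scale (-2.10 to -1.02), and proliferation genes by 0.31 (-0.61 to -0.01). In the Loaded section *S100a8*, *S100a9* and *Pglyrp1*, but not *Cxcr2* and *Ly6g*, were thus higher in the patch with more osteoblast and fewer erythroid transcripts. The part of the osteoblast and erythroid transcripts in this result was not tested. In the Control section the largest patch had fewer osteoblast and more erythroid transcripts, with *S100a8* at 3.02 against 2.42 and *S100a9* at 1.10 against 2.55.

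Across the 100 spots of a section, the share of the 9 genes had a Spearman coefficient of 0.314 (Control) and 0.578 (Loaded) with the share of the granulocyte genes outside the rule, of -0.047 and -0.246 with the erythroid share, and of -0.078 and -0.389 with the distance to the bone region. The spots share a library, neighbors share tissue, and the range was set by the selection, so these values only describe the spots.

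Between the sections, Loaded was compared with Control within the selected spots, which were placed differently, with 7 Control and 43 Loaded spots within 500 μm of the bone region. Loading and this difference in position cannot be told apart. Of 1162 genes with at least 50 UMIs, 71 (6.11%) were at least 2-fold higher in the Loaded spots and 45 (3.87%) at least 2-fold lower, and the median log2 ratio of all genes was 0.01. The rule uses the 9 genes in both sections alike, but since their level decides which spots enter, the contrast is not independent of it. Of the 8 that passed the limit, 4 were at least 2-fold higher and 0 lower: *S100a8* (+1.79, 1.50 to 2.10), *Ngp* (+1.78), *S100a9* (+1.50) and *Cd177* (+1.35). *Camp* (+0.83), *Ncf1* (+0.43), *Ltf* (-0.18) and *Elane* (-0.34) did not reach 2-fold.

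By stage, the summed log2 ratio was -0.21 (-0.47 to 0.05) for primary granule genes, 0.80 (0.69 to 0.91) for secondary granule genes and 1.47 (1.29 to 1.65) for mature neutrophil genes. The size of these sums depended on the largest Loaded patch, at a median of 265 μm from the bone region. Without the largest Loaded patch, *Camp* stood at +0.25, *S100a8* at +0.65, *Ngp* at +0.42 and *Pglyrp1* at +1.07, and *S100a9* turned to -0.23 (0.05 if the Control spot with 20 UMIs was left out as well), while *Cd177* stayed at +1.45 and *Elane* at -0.38. The summed values then were -0.27 for primary granule genes, 0.21 for secondary granule genes and 0.42 for mature neutrophil genes, in the same order but closer together. These sums consist mostly of genes of the rule. Without the genes of the rule they were -0.06 (-0.42 to 0.30), 0.58 (0.03 to 1.14) and 1.08 (0.79 to 1.38) with all spots, and -0.15 (-0.57 to 0.26), -0.24 (-0.96 to 0.47) and 0.56 (0.22 to 0.90) without the patch, so that primary and secondary granule genes could not be ordered there. The 21 granulocyte genes outside the rule together stood at 0.56 (0.35 to 0.77), and at 0.11 (-0.14 to 0.36) without the patch. With all spots 1 of 5 tested genes was at least 2-fold higher, beside 6.11% of all genes. A single area of the Loaded section carried most of the difference in the secondary granule and mature neutrophil sums with the genes of the rule, and whether the Control section had such an area outside its plane cannot be told. The Control section kept all its spots in this step. The patch had a median rule share of 1.72%, against 1.06% in the other Loaded spots. Lower sums of rule genes without the patch thus follow in part from the ranking.

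**Figure D5:**
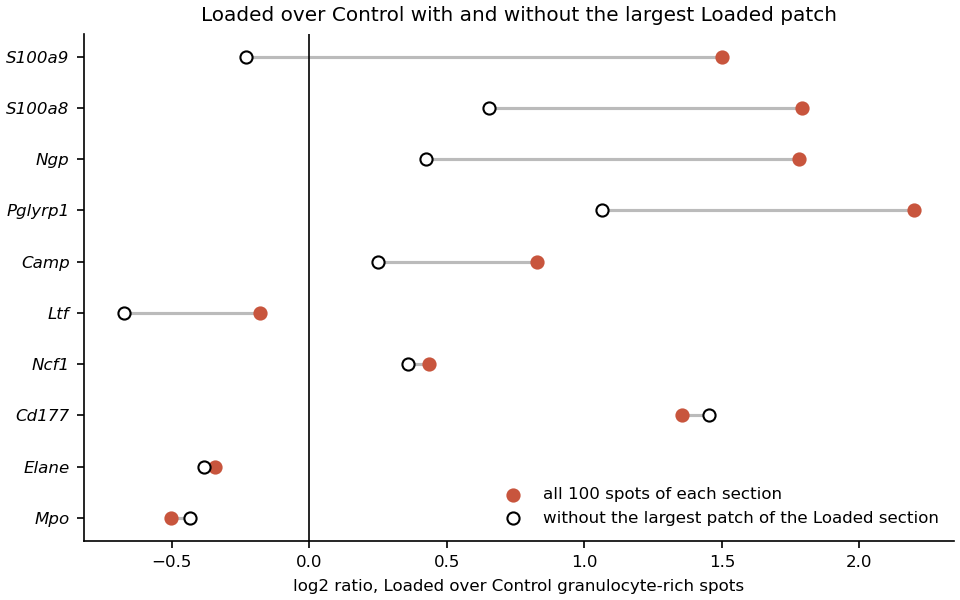
Log2 ratio of normalized counts, Loaded over Control granulocyte-rich spots, for granulocyte genes, with all 100 spots of each section (filled) and with the largest connected patch of the Loaded section left out (open). *S100a9* goes from +1.50 to -0.23, a sign that rests on 1 Control spot with 20 UMIs, and *S100a8* from +1.79 to +0.65, whereas *Cd177*, *Ncf1*, *Elane* and *Mpo* stay near their place.

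Among the genes whose 4 blocks did not overlap between the sections, the 8 highest and the 8 lowest ratios are given here, chosen from the 4.48% of genes with all Loaded blocks above and the 6.2% with all Loaded blocks below the Control blocks. Of these, only *Pglyrp1* (+2.20, 18 UMIs in the Control and 107 in the Loaded spots) was a granulocyte gene. The higher ones included the slow troponins *Tnni1* (+3.70, 7 and 118 UMIs), *Tnnc1* (+2.69) and *Tnnt1* (+2.57) and the myosin *Myh2* (+2.10). Also among them were the mitochondrial enzyme *Idh2* (+2.69) and the small heat shock protein *Hspb7* (+2.22). No list of slow or oxidative fiber genes was counted. Of the 21 muscle genes tested, however, 4 were higher and 1 lower, beside 6.11% and 3.87% of all genes, with a median of 0.21, and muscle genes together took 6.60% and 7.28% of UMIs. Muscle cells are not part of marrow, and 59 Control but 20 Loaded spots had less than 5% of muscle UMIs. In those spots alone *Tnni1* stood at +2.13, *S100a8* at +2.71 and the mature neutrophil genes at 2.48. *Ppbp*, the platelet basic protein of megakaryocytes, was higher (+2.36, 12 and 80 UMIs), and the summed megakaryocyte genes stood at 1.19 (0.81 to 1.59), *Pf4* among them at +0.73 with 33 and 71 UMIs. In the spots with little muscle *Ppbp* stood at +0.55.

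The lower ratios were led by *Scd1* (-2.35), the stearoyl-CoA desaturase of lipid synthesis, with 59 UMIs in the Control and 15 in the Loaded spots. After it came *Cramp1l* (-1.92), *Akap13* (-1.71), *Tnks* (-1.56), *Ncbp3* (-1.52), *Mtln* (-1.43), *Col5a1* (-1.37) and *Cant1* (-1.35), with 15 to 33 UMIs in the Loaded spots. The Control blocks of *Scd1* lay between 0.538 and 1.99 and the Loaded blocks between 0.140 and 0.439. *Cfd* (-2.02, 94 and 30 UMIs) and *Fabp4* (-1.75, 125 and 48 UMIs), both of adipocytes, were the adipocyte genes that passed the limit, and the list as a whole had 250 UMIs in the Control and 103 in the Loaded spots. *Adipoq*, with 16 and 12 UMIs, was too low to be counted. The cartilage genes *Col2a1* (-1.58) and *Comp* (-1.03) were lower as well, with 53 and 41 UMIs in the Control and 23 and 26 in the Loaded spots. The blocks of *Cfd*, *Fabp4*, *Col2a1* and *Comp* overlapped between the sections. The share of the chondrocyte list was 0.205% in 1 Control block and between 0.0335% and 0.0534% in the others.

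Erythroid genes were slightly lower in the Loaded spots, with a summed log2 ratio of -0.34 (-0.37 to -0.31). The blocks overlapped, with shares of 9.74, 11.2, 3.25 and 15.1% in the Control and 11.2, 6.17, 7.94 and 7.15% in the Loaded section. The genes also differed. *Hbb-bs* (-0.09) and *Hbb-bt* (-0.09) were close to 0, *Hba-a2* was at -0.64, while the heme synthesis gene *Alas2* (-0.81), the carbonic anhydrase *Car2* (-1.06) and the band 3 anion exchanger *Slc4a1* (-1.08) were lower. The globin genes, like the immunoglobulin segments, have near-identical copies, and their probes may not tell the copies apart. Of 8 erythroid genes 2 were at least 2-fold lower and 0 higher, beside 3.87% and 6.11% of all genes. Proliferation genes had 0 of 4 past 2-fold, which the share over all genes also gives, and a sum of -0.19 (-0.39 to 0.01). Among the plasma cell genes the light chain *Igkc* was higher (+1.35, 76 and 250 UMIs) and the heavy chain *Igha* lower (-0.71, 207 and 164 UMIs). In 1 Loaded spot 3.79% of the UMIs came from this list, and how far single spots set these ratios was not tested.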

How the data were processed

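The data were Visium gene expression libraries of 2 paraffin sections of mouse femur, 1 Control and 1 Loaded. The deposited values are raw UMI counts per gene and spot, which the authors obtained by aligning and counting the probe reads with SpaceRanger (2.0.0 by the matrix header, genome build mm10 and R 4.3.1 with Seurat per the labels), without normalization. Values of 19465 genes in all spots under tissue were used, with 9002147 UMIs in the Control and 4910716 in the Loaded section. Barcodes mark array positions, and 557 of them lay under tissue in both sections. The outline of the bone region came from the barcodes that the study lists for it.

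UMIs were summed over groups of spots and divided by summed scran size factors (scran 1.30.0, R 4.3.3), computed over the spots of both sections together; the study's own test used scran factors too. That likelihood ratio test over spots was left out, since spots of a single section do not replicate a condition. The 95% intervals cover counting error only and are exact, by the Poisson distribution for normalized counts and by the binomial for shares and, conditional on the sum, for ratios. A sum of 0 was replaced by 3 UMIs. For shares of spots with a UMI, each spot was thinned to 500 UMIs, and muscle-rich outer spots are those with at least 10% of UMIs from 22 muscle genes. Distances were taken on the array grid. Named genes are the 9 of the rule, genes of 30 lists, and in each comparison the 8 highest and 8 lowest ratios among genes with at least 50 UMIs whose 4 blocks did not overlap. The members, the lists and the rule were chosen with earlier results of these data known. Some genes of the lists were not analysed here. The ratio computation was tested on simulated counts with known changes.

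Results were recomputed with TMM factors (edgeR 4.0.16), with library totals, with totals that leave out abundant genes, with factors from the selected spots alone, 50 or 200 spots, another ranking, other minimums of UMIs, spots with less than 5% muscle, equal weights, a common limit, each block left out and, added after the values were seen, the largest patch left out, for *S100a9* also with 1 Control spot left out, and the sums by stage without the genes of the rule. Computations used Python 3.11.15, numpy 2.4.6, scipy 1.17.1, pandas 2.3.3 and matplotlib 3.10.9.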

Additional observations from a re-analysis of the deposited data

How the results depend on the processing

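No paired analysis was possible because the labels give no replicate numbers and each group has 1 section. Counts of genes past 2-fold over the other outer spots moved with scaling and the minimum of UMIs, and those between the sections with the number of spots, the minimum and the muscle share, while scaling gave 70 to 78 higher and 40 to 47 lower genes there. In the Control section library totals gave 2950 higher and 1591 lower genes and TMM factors 758 and 4449, and with a minimum of 10 UMIs or of 1 UMI in each group 5035 and 6119 genes were higher. In the Loaded section TMM factors gave 632 and 3130, spots with little muscle 2588 higher genes, and the lower minimums 3114 and 4889. In these 20 spots *Eif2b4*, *Popdc3* and *Rbfox1* turned to 0.0143, 0.0513 and 0.17, since their counts there were 0 UMIs and were set to 3. Between the sections the counts were 33 and 27 with 50 spots, 133 and 72 with 200 spots, 717 and 540 with 10 UMIs, 1510 and 1850 with 1 UMI in each group, 27 and 33 in spots with little muscle, where 329 and not 1162 genes were tested, and with each block left out 48 to 88 higher and 28 to 54 lower (28 without block 4 of the Control section).

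The summed log2 ratio of secondary granule genes, Loaded over Control, was 1.03 with 50 and 0.62 with 200 spots, 1.25 with the ranking by other granulocyte genes, 1.35 in spots with little muscle, 0.68 with equal weights, 0.56 with a common limit, 0.45 to 0.98 with each block left out (0.45 without block 4 of the Loaded section) and 0.21 without the largest patch. That of mature neutrophil genes was 1.73, 1.13, 2.48 (little muscle), 1.19 (common limit), 1.04 to 1.68 (blocks) and 0.42 (patch). That of primary granule genes turned from -0.21 to 0.21 with the other ranking and to 0.39 in spots with little muscle. *S100a9* turned to -0.23 without the patch, and to 0.05 if the Control spot with 20 of its UMIs was also left out, a setting chosen after the values were seen. The shares of UMIs moved with the number of spots, in the order 50 and 200 spots: secondary granule 0.729% and 0.503% (Control) and 1.56% and 0.791% (Loaded), mature neutrophil 0.271% and 0.193%, and 0.940% and 0.430%, primary granule 0.166% and 0.114% (Loaded) and 0.122% with 200 spots (Control). As a mean over spots they were 0.195% (mature, Control), 0.564% (mature, Loaded) and 1.02% (secondary, Loaded), and without the patch 0.295% and 0.721%. Why these values moved was not tested, beyond what the number of spots and the minimum themselves fix. With 100 spots a section and medians of 1488 and 1933 UMIs per spot, genes below 50 UMIs were left out of the main counts. Values given for such genes rest on few UMIs.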

Other observations

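The niche gene *Cxcl12*, which retains neutrophils in the marrow, had 17 UMIs in the Control and 24 in the Loaded spots and log2 ratios over the other outer spots of -0.05 and -0.14, while *Ebf3*, a factor of the stromal cells that express it, stood at +3.13 (18 UMIs) and +1.96 (19 UMIs). Of the niche genes 4 of 8 in the Control and 2 of 7 in the Loaded section were at least 2-fold higher, beside 19% and 14.2% of all genes tested. Among the endothelial genes *Stab2*, which marks marrow sinusoids, was higher in both sections (+2.65, 18 UMIs, and +2.08, 12 UMIs), and it was the only one of 10 (Control) and 8 (Loaded) that was, while 3 were lower in each section, beside 26.2% and 20.9% of all genes, a share that differs little from 3 of 10. The summed osteoclast genes stood at 0.50 and 0.04 with scran factors and at -0.23 and -0.41 with TMM factors, with *Ctsk* at +0.55 and -0.03 and *Acp5* at +0.33 and +0.15 with the former, and interferon response genes were higher in 5 of 6 (Control) and 1 of 5 cases (Loaded), the latter near the share over all genes. Genes of stem and progenitor cells were higher in 0 of 4 and 0 of 5 cases and lower in 1 and 3, the former near the share over all genes. T and NK cell genes summed to 10 and 20 UMIs, dendritic cell genes to 7 and 11, and genes of eosinophils, basophils and mast cells to 11 and 21, too few to compare. Schwann cell genes, with 23 and 35 UMIs, were lower in 2 of 4 cases in each section.

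The granule metalloproteinase *Mmp9*, made by neutrophils and osteoclasts, had 180 UMIs in the Control and 219 in the Loaded spots, normalized counts of 4.04 (3.47 to 4.67) and 3.79 (3.31 to 4.33). In the largest Loaded patch it stood at 5.18 against 3.00 in the other Loaded spots, a smaller contrast than that of *S100a8*.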
